A study of Mus musculus with 3 samples.

Results

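Lyz2 and Lyz1 are 2 neighbouring lysozyme genes of the mouse, chosen here by name from the 55536 genes of the M21 gene tables. The study sequenced total RNA of blood monocytes, primary cells of adult C57BL/6J mice aged 5 to 6 weeks. Its 3 libraries form 1 group with no treatment named and are numbered 1, 2 and 3 after the labels' biological replicates. All 3 libraries carry the same donor record, no sex is given, and nothing in the labels says that they came from separate animals. The spread between libraries may therefore be partly technical. Each library was made from 100 ng of RNA depleted of ribosomal RNA, with fragments recorded as 200 to 594, 200 to 491 and 200 to 1000 bp in libraries 1, 2 and 3.

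Lysozyme cuts the sugar backbone of peptidoglycan, the polymer of bacterial cell walls, and so kills some bacteria and frees fragments that innate sensors recognise. Lyz2, also called lysozyme M, is the lysozyme of monocytes, macrophages and neutrophils, and its locus is widely used to drive Cre recombinase in myeloid cells. Lyz1, lysozyme P, is best known from the Paneth cells of the small intestine. The near-identity of the 2 transcripts makes the division of reads between them a step of the processing, which was compared here across 3 kinds of deposited table.

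Both genes lie on the minus strand of chromosome 10. Lyz2 (ENSMUSG00000069516.8) spans chr10:117277331-117282321 and Lyz1 (ENSMUSG00000069515.6) spans chr10:117287797-117292868 in mm10, with 5475 bases between them. Each has 4 exons and, in the M21 tables, 1 transcript, ENSMUST00000092163.8 of 1316 bases for Lyz2 and ENSMUST00000092162.6 of 1263 bases for Lyz1. That transcript held 100% of its gene's count in each table and library, so neither gene had an isoform to compare. The coding part has 447 bases in both. The Lyz2 transcript starts with 49 bases that have no partner in the Lyz1 transcript of the annotation. In the genome the same 49 bases directly precede the RefSeq start of Lyz1. Over the remaining 1262 aligned bases the transcripts differed by 51 substitutions and 2 gaps of 1 base, an identity of 96.0%. The 3′ UTR carried 29 of the substitutions and the coding part 22. The substitutions fell in 18 of 148 codons and changed the encoded residue in 12 of them. Exon 3, of 79 bases, was identical, and the longest identical stretch had 118 bases.

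**Figure D1:**
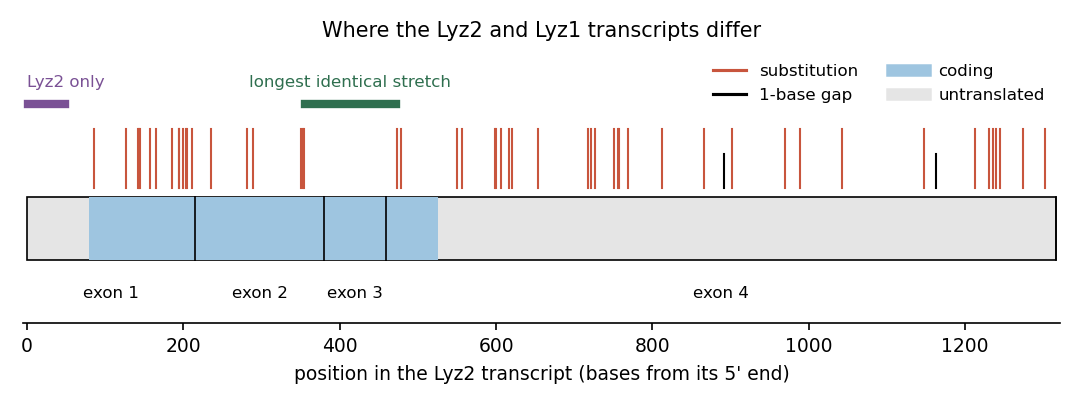
Substitutions (red) and 1-base gaps (black) between the Lyz2 and Lyz1 transcripts along the Lyz2 transcript, in bases from its 5′ end, with exons as boxes and the coding part in blue. The 51 substitutions are spread over exons 1, 2 and 4, and the longest identical stretch (118 bases, green) covers the whole of exon 3. The 49 bases at the left end (purple) stand in the annotated Lyz2 transcript alone, but the same bases precede the RefSeq start of Lyz1 in the genome.

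Exon 2, which is coding throughout its 165 bases and carries 6 substitutions, shows what separates the paralogs. It lies at chr10:117280641-117280805 in Lyz2 and at chr10:117291029-117291193 in Lyz1 (mm10, minus strand, GENCODE M21). Capitals mark the bases that differ.
Lyz2 exon 2: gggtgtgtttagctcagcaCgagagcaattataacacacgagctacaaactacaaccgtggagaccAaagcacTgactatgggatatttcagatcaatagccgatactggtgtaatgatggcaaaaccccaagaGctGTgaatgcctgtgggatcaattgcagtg
Lyz1 exon 2: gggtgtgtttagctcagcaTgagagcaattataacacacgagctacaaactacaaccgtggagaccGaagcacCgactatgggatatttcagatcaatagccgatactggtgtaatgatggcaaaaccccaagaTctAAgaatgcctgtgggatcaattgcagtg
A read inside the long stretches between capitals matches both genes alike. Of 1233 windows of 31 bases in the Lyz1 transcript, 422 (34.2%) also occur in Lyz2. The share was 16.1% at 50 bases, 6.22% at 75 bases and 2.06% at 100 bases, and no window of 150 or 200 bases was shared. The fragments were recorded as 200 bases or more, but no source used here gives the read length. The M21 effective length of Lyz2, by which TPM divides, was 1141, 1154 and 1130 bases in libraries 1, 2 and 3. It lies less than 200 bases below the transcript length of 1316, so the sequenced fragments may have averaged fewer than 200 bases. A search of all M21 transcripts with each lysozyme transcript found 2 other genes (BLAST+, E-value of 1e-10 or lower). They were the neighbours 9530003J23Rik, with at most 76.4% identity, and the pseudogene Gm10936, with 79.6% identity over 137 bases, and both had 0 counts in each library.

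Over the 250 bases before the RefSeq start (GRCm38.p6), the promoters were more different than the transcripts, with 200 of 248 aligned bases identical (80.6%). The 50 bases next to that start were identical in both genes, so the differences lay further upstream. The stretch from base -140 to base -61 before that start lies upstream of both annotated transcripts, at chr10:117282333-117282412 for Lyz2 and chr10:117292929-117293008 for Lyz1 (minus strand). It is shown with capitals at the 12 of 80 bases that differ, and whether these bases bear on the levels of the genes was not tested.
Lyz2 promoter: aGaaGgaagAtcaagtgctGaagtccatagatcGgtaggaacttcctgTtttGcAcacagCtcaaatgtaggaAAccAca
Lyz1 promoter: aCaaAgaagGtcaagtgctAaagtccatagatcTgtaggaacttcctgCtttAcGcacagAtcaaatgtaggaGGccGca
Both contain AGGAAC at base -104, a string chosen after the sequences were seen that 15.1% of 32851 RefSeq promoters of this length hold on either strand. GAGGAA (23.3% of promoters) and TATAAA (12.4%) were searched on both strands and are not in the 250 bases of either gene. These matches describe letters only, and binding was not measured.

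Lyz2 was among the most abundant protein-coding transcripts of these libraries, while Lyz1 was present at a few TPM on the deposited scale. In the M21 gene tables Lyz2 had 1448, 1238 and 718 TPM (relative transcript abundance, a level per length) in libraries 1, 2 and 3. Lyz1 had 3.93, 4.14 and 1.97 TPM in the same libraries. The lowest Lyz2 value thus stood far above the highest Lyz1 value, and both genes were lowest in library 3. Lyz2 averaged 1135 TPM ± 376 and Lyz1 averaged 3.35 TPM ± 1.20 (SD, n = 3 each). The estimated read counts behind these levels were 185609, 173539 and 61674 for Lyz2 and 480, 553 and 162 for Lyz1. Lyz2 alone held 0.683%, 0.654% and 0.310% of all counts, and 1.33%, 1.26% and 0.671% of the TPM of protein-coding genes.

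**Figure D2:**
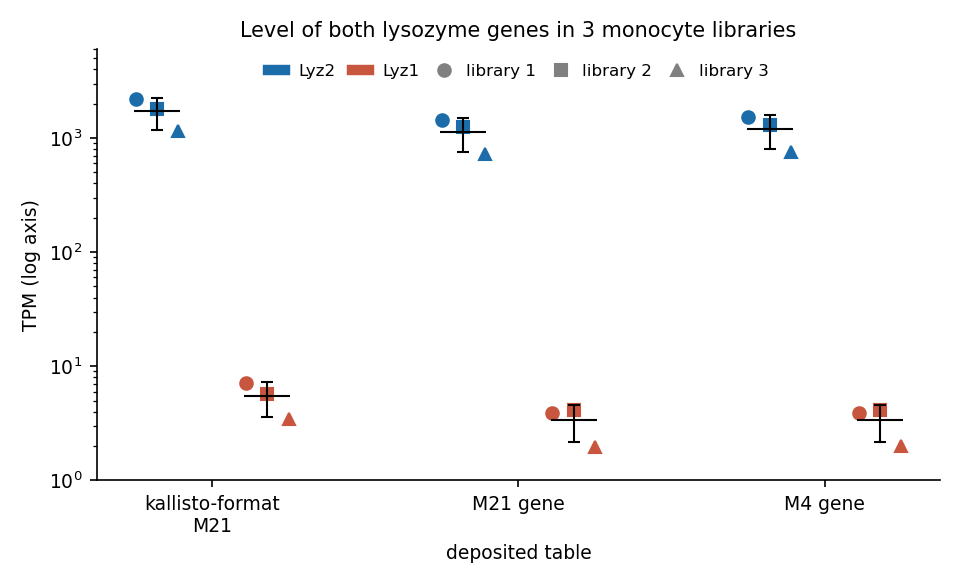
TPM (log axis) of Lyz2 (blue) and Lyz1 (red) in the kallisto-format M21 tables, the M21 gene tables and the M4 gene tables; symbols are the 3 monocyte libraries, black bars the mean and SD. In each table every Lyz2 value lies above every Lyz1 value, from 718 to 2208 TPM against 1.97 to 7.12 TPM, and library 3 is lowest for both genes.

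Within a library, Lyz2 exceeded Lyz1 by 369-fold, 299-fold and 365-fold in TPM. The mean log2 ratio of (Lyz2 TPM + 0.1) to (Lyz1 TPM + 0.1) was 8.37 ± 0.16 (SD, n = 3), or 331-fold. Lyz2 was higher in 3 of 3 libraries, and the exact two-sided sign-flip test gave p = 0.25, the smallest that 3 libraries allow (adjusted p = 0.375 over 3 comparisons).

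Among 21951 protein-coding genes ranked by mean TPM in the M21 gene tables, Lyz2 was second. The alpha globin Hba-a2, which has a near-identical copy in Hba-a1, stood above it at 1593 TPM ± 1248, and Tmsb4x, an actin-binding peptide, below it at 1076 TPM ± 164 (SD, n = 3 each). These neighbours did not differ from Lyz2 beyond their spread. Lyz2 ranked 2, 2 and 3 in libraries 1, 2 and 3. Lyz1 was at rank 5106 by its mean, between Uty (3.35 TPM ± 0.39) and Zbtb7a (3.35 TPM ± 0.77; SD, n = 3 each), and ranked 4445, 3974 and 7073 in the single libraries. The 3 means lie within one another's spread. In the kallisto-format tables Lyz2 ranked 2, 3 and 5 and Lyz1 ranked 4768, 4892 and 7734 in libraries 1, 2 and 3.

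The level of each gene was set against 1 TPM with edgeR's quasi-likelihood test across all genes. Lyz2 lay above 1 TPM by 10.15 on the log2 scale (edgeR adjusted p = 2.61e-18) and in 3 of 3 libraries. Lyz1 lay above it by 1.74 on the log2 scale (edgeR adjusted p = 0.000113), also in 3 of 3 libraries. Of 17678 genes tested, 7636 (43.2%) lay above 1 TPM by this test and 1123 (6.35%) below, so a call above 1 TPM is common here. Among the 12984 protein-coding genes tested, 54% lay above 1 TPM and 6.02% below, with a median level of 1.06 (log2 over 1 TPM). For Lyz1 the adjusted p over all alternatives ran from 4.14e-10 to 0.0435, the highest with DESeq2. For Lyz2 it ran from 1.08e-245 with DESeq2 to 1.38e-07 with limma. The tests treat the libraries as independent replicates, which the labels do not establish. With TPM over protein-coding genes alone, Lyz1 lay above 1 TPM by 4.98 on the log2 scale. The calls of both genes use the division of reads that the deposited tables made.

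The gene tables divided one pool of reads between the 2 paralogs and gave Lyz1 about 0.3% of it. The counts of Lyz2 and Lyz1 are not whole numbers, but their sum was whole in every library, within a tolerance of 0.005 counts. It was 186089, 174092 and 61836 in the M21 gene tables and 185707, 173320 and 61721 in the M4 gene tables. A whole sum means that no fraction of a read went to any other gene. Most genes showed no such division: among protein-coding genes with 100 counts or more, 88.7%, 88.9% and 87.2% had whole counts in libraries 1, 2 and 3. The posterior SD of the count that the authors deposited was 1.86, 1.40 and 0.78 counts, equal for both genes. That is 0.388%, 0.253% and 0.483% of the Lyz1 count, and smaller than the square root of the Lyz1 count, 21.9, 23.5 and 12.7 counts, which measures counting error. Relative to its count, this SD was nevertheless high among protein-coding genes with 100 counts or more. Only 6.67%, 7.55% and 6.68% of them had a larger relative SD than Lyz1, and 85.3%, 85.5% and 83.4% had an SD of 0.

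In the M21 gene tables Lyz1 held 0.258%, 0.318% and 0.261% of the counts of both genes in libraries 1, 2 and 3. The exact 95% binomial intervals (Clopper-Pearson, on rounded counts) were 0.235 to 0.282%, 0.292 to 0.345% and 0.223 to 0.306%. Library 2 stood higher than library 1 beyond these intervals, which cover counting error only, since reads copied by PCR are not independent molecules. The mean was 0.279% ± 0.034 (SD, n = 3). Between libraries 1 and 3 the Lyz2 level differed 2.02-fold, while the Lyz1 share of library 3 lay within the interval of library 1. What part of the Lyz1 count came from Lyz2 RNA was not tested.

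**Figure D3:**
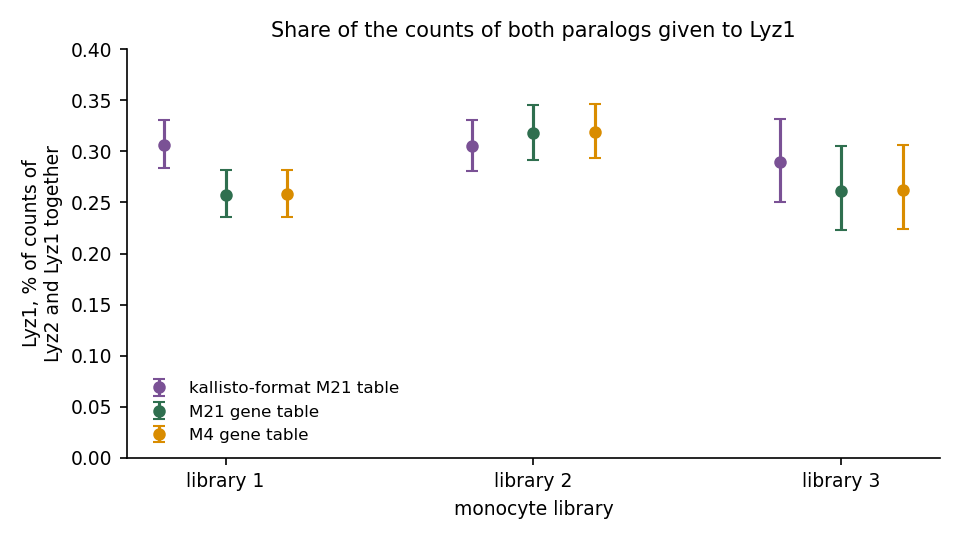
Counts of Lyz1 as a percentage of the counts of Lyz2 and Lyz1 together, by monocyte library and deposited table; bars are exact 95% binomial intervals, which cover counting error only. The M21 and M4 gene tables give almost the same shares, highest in library 2 at 0.318% and 0.319%, whereas the kallisto-format tables give 0.289 to 0.307% with overlapping intervals.

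The annotation release hardly moved the division. The M21 gene tables gave Lyz2 381, 772 and 115 counts more than the M4 gene tables in libraries 1, 2 and 3. For Lyz1 the M21 counts were higher by 0.54, 0.20 and 0.04. The annotated Lyz2 transcript has 1316 bases in M21 and 1266 in M4, and that of Lyz1 has 1263 bases in M21 and 1264 in M4. The Lyz1 share of counts in M21 minus that in M4 was -0.00065 ± 0.00057 percentage points (SD, n = 3), with a negative sign in each library (exact sign-flip p = 0.25, adjusted p = 0.375). In TPM the same difference was 0.0122 ± 0.0010 percentage points and positive in each library (exact sign-flip p = 0.25). Unlike a count, TPM divides by length. The M21 effective length of Lyz2, the length by which TPM divides, was 1.05 times that of M4 in each library, and the M21 TPM of Lyz2 was 0.955, 0.955 and 0.944 times the M4 TPM. Lyz2 had 1517, 1296 and 760 TPM in the M4 tables, and Lyz1 had 3.93, 4.16 and 2.00 TPM there.

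The kallisto-format tables held more counts of both genes and spread the Lyz1 share more evenly over libraries. Lyz2 had 219075, 193439 and 67979 estimated counts in these tables, 1.18, 1.11 and 1.10 times those of the M21 gene tables. Lyz1 had 674, 592 and 197 estimated counts, 1.41, 1.07 and 1.22 times those of the M21 gene tables. The median protein-coding gene with 100 counts or more in both had 1.31, 1.24 and 1.26 times its gene-table count, so Lyz2 gained less than the median in each library and Lyz1 more only in library 1. The Lyz1 share was 0.307%, 0.305% and 0.289%, with a mean of 0.300% ± 0.010 (SD, n = 3). The kallisto-format share minus the M21 gene-table share was 0.0489, -0.0126 and 0.0279 percentage points, on average 0.0214 ± 0.0313 (SD, n = 3). The sign was positive in libraries 1 and 3 (exact sign-flip p = 0.5, adjusted p = 0.5), so the tables did not differ in a single direction beyond the spread. In library 1 the share of the kallisto-format table lay above the interval of the M21 gene table, which ends at 0.282%. That interval covers counting error and does not measure how far tables of the same library may differ.

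Levels in the kallisto-format tables depend on what TPM is scaled over. Lyz2 had 2208, 1781 and 1142 TPM and Lyz1 had 7.12, 5.71 and 3.48 TPM there, 1.52, 1.44 and 1.59 times the M21 gene-table TPM for Lyz2. Scaled over protein-coding genes alone, Lyz2 had 11043, 10502 and 5168 TPM in the kallisto-format tables, against 13273, 12589 and 6711 TPM in the M21 gene tables. On that scale the direction flips, with ratios of 0.832, 0.834 and 0.770 in libraries 1, 2 and 3. Protein-coding genes took 20.0%, 17.0% and 22.1% of TPM in the kallisto-format tables and 10.9%, 9.84% and 10.7% in the M21 gene tables. The log2 ratio of Lyz2 to Lyz1, to which this scaling is nearly indifferent, was 8.28 ± 0.04 in the kallisto-format tables, 8.37 ± 0.16 in the M21 gene tables and 8.44 ± 0.16 in the M4 gene tables (SD, n = 3 each).

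Across the libraries both lysozymes were lowest in library 3. Lyz2 varied with a coefficient of variation of 33.1% and Lyz1 with 35.8%, against a median of 24.5% over 8298 protein-coding genes with a mean of 1 TPM or more. For Lyz2, 68.0% of those genes varied less, and for Lyz1 72.1%. The deposited interval of TPM, whose level no source used here gives, was 1420 to 1434, 1217 to 1229 and 699 to 711 for Lyz2. The TPM used here lay above it in each library, while the separately deposited posterior mean TPM, 1427, 1223 and 705, lay inside it. For Lyz1 the interval was 3.53 to 4.22, 3.75 to 4.43 and 1.66 to 2.25, so that libraries 1 and 2 overlapped and library 3 stood below both.

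The pattern over libraries was compared by the distance of log2(TPM + 0.1), centred on each gene's mean, among protein-coding genes with a mean of 10 TPM or more. The 5 genes nearest to Lyz2, of 2075, were S100a4, Skint3, Rnaseh2c, Rps23 and Ciao2a, at distances of 0.017 to 0.043. S100a4, a calcium-binding protein, had 117, 101 and 57.9 TPM, and Rps23, a ribosomal protein, had 433, 359 and 215 TPM in libraries 1, 2 and 3. The 5 genes nearest to Lyz1, of 2076, were Ifitm3, Litaf, Trem1, Prdx1 and Rab11a, at distances of 0.033 to 0.071. Ifitm3, a membrane protein that restricts viral entry, had 74.6, 80.1 and 39.5 TPM, and Trem1, an activating receptor of myeloid cells, had 15.7, 15.6 and 7.80 TPM. Lyz1 was 0.226 from Lyz2, and 88 of 2075 genes were nearer to Lyz2 than that, with a median distance of 0.852. With 3 libraries these distances describe the samples only.

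**Figure D4:**
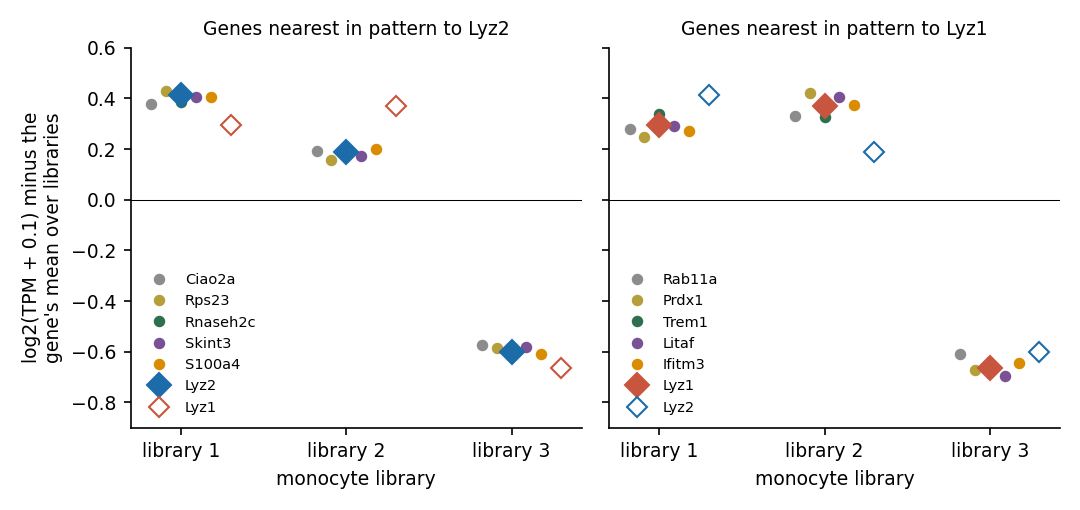
Log2(TPM + 0.1) minus each gene's mean over libraries, for Lyz2 and its 5 nearest genes (left) and Lyz1 and its 5 nearest genes (right), with the other lysozyme as an open diamond, by monocyte library. All genes shown are lowest in library 3; Lyz2 and its neighbours are higher in library 1 than in library 2, while Lyz1 is higher in library 2, at 4.14 TPM against 3.93 TPM in library 1.

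Markers of several blood cell types moved between the same libraries. In bulk samples, fewer cells of a type and less RNA per cell cannot be told apart. The 10 monocyte markers all had counts in each library and summed to 1120, 946 and 974 TPM, with the defining receptor Csf1r at 69.8, 52.4 and 86.6 TPM. The members of that list moved in opposite directions, with 2 lowest and 6 highest in library 3. Ctss, a lysosomal protease and its most abundant member, was lowest there, at 497, 369 and 234 TPM in libraries 1, 2 and 3. Nr4a1, a transcription factor, was highest there, at 75.3, 67.2 and 148 TPM, as was Ly6c2, at 6.81, 7.72 and 24.7 TPM. Without Ctss the other 9 markers summed to 623, 577 and 740 TPM. The log2 ratio of Lyz2 to the sum of all 10 was 0.37, 0.39 and -0.44. The 8 neutrophil markers summed to 142, 128 and 9.62 TPM, with the defining Ly6g at 0 counts in each library and the secreted Retnlg at 124, 114 and 0 TPM. Without Retnlg the other 7 summed to 17.6, 13.9 and 9.62 TPM. Of the 8 neutrophil markers, 6 were lowest in library 3, among them S100a8 at 5.53, 1.42 and 0.35 TPM. Only 1, the receptor Csf3r, was highest there, at 5.99, 6.64 and 8.09 TPM, and it made up most of the sum in library 3. The 5 erythroid markers summed to 3157, 2984 and 228 TPM, with Klf1 at 0. The 5 markers of tissue macrophages and dendritic cells summed to 44.8, 34.4 and 21.9 TPM, of which the macrophage receptor Adgre1 gave 40.3, 30.8 and 20.1 TPM and the other 4 lay at 0.06 to 3.19 TPM. In the other direction, the 5 NK cell markers summed to 574, 472 and 1324 TPM and the 5 platelet markers to 15.3, 11.0 and 95.2 TPM. The 5 B cell markers summed to 90.6, 90.2 and 80.7 TPM and the 5 T cell markers to 2.51, 2.96 and 5.11 TPM. The part of these cells in the lysozyme levels was not tested. All 6 Paneth cell markers, among them the defensin genes Defa24 and Defa30, had 0 counts in each library.

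No other listed lysozyme gene was detected. The 8 listed relatives (Lyzl1, Lyzl4, Lyzl6, Spaca3, Spaca5, Lalba, Lyg1 and Lyg2), which include lysozyme-like genes of sperm, the milk protein alpha-lactalbumin and the g-type lysozymes, had 0 counts in each library. A count of 0 allows up to 3 counts, here 0.010 to 0.087 TPM depending on gene and library. Lyz2 and Lyz1 thus carried every count of the listed lysozyme genes.

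The nearest expressed genes on either side of the pair stood between Lyz2 and Lyz1 in level. On the same strand and beyond Lyz1, Cpsf6, a subunit of the pre-mRNA cleavage machinery, had 7.68, 6.91 and 13.2 TPM in libraries 1, 2 and 3. Yeats4, a chromatin reader on the side of Lyz2, had 11.4, 11.2 and 7.76 TPM. Of the 6 neighbours listed, 4 were tested and 3 (Yeats4, Cpsf6 and Cct2) lay above 1 TPM, where 43.2% of all genes and 54% of protein-coding genes did. Their median level was 3.27 (log2 over 1 TPM), against 0.24 over all genes tested and 1.06 over protein-coding genes. Frs2 was not called on either side (edgeR adjusted p = 0.145), and Best3 and Lrrc10 had 0 counts.

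Genes for sensing and importing peptidoglycan fragments were detected at levels far below Lyz2, and most of those tested lay above 1 TPM. Of 15 listed genes 12 could be tested, and 9 lay above 1 TPM, none below, and 3 on neither side, where 43.2% of all genes and 54% of protein-coding genes lay above. The median level of the 12 was 2.36 (log2 over 1 TPM), against 0.24 over all genes tested and 1.06 over protein-coding genes. The list was chosen with earlier results of these data known, so its share and median describe the listed genes only. Among sensors, Nod1 had 6.61, 6.07 and 11.4 TPM and the cell-surface receptor Tlr2 had 5.60, 5.61 and 7.59 TPM in libraries 1, 2 and 3. Nod2, which senses muramyl dipeptide, had 1.33, 0.63 and 0.86 TPM and was not called on either side (edgeR adjusted p = 0.807). Ripk2, the kinase that both NOD receptors signal through, had 4.76, 4.79 and 3.14 TPM. Nod1 and Tlr2 were highest in library 3, where Ripk2 and both lysozymes were lowest. Of the 4 secreted or surface peptidoglycan recognition proteins, Pglyrp1 had 14.6, 13.9 and 9.12 TPM, Pglyrp2 had 0.74, 1.20 and 3.50 TPM, and Pglyrp3 and Pglyrp4 had 0 counts. Pglyrp2, an amidase, was not called (edgeR adjusted p = 0.0738). It lay above 1 TPM without library 1 or without library 2, while without library 3 its level was -0.038 (log2 over 1 TPM). Among transporters, Slc15a4, which carries fragments out of endolysosomes, had 16.7, 13.4 and 30.0 TPM and Slc46a3 had 8.32, 10.3 and 6.42 TPM. Slc15a2 had 5.62, 4.17 and 9.43 TPM and Slc15a3 had 2.81, 2.24 and 2.97 TPM, while Slc46a2 had 0 counts. Nagk, which phosphorylates N-acetylglucosamine, had 2.54, 2.31 and 2.93 TPM. Amdhd2, a further enzyme of amino sugar breakdown, had 0.68, 2.31 and 2.51 TPM and was not called (edgeR adjusted p = 0.0895), but lay above 1 TPM without library 1. The calls of Slc15a3 and Nagk were lost with DESeq2.

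Genes for other antimicrobial granule and secreted proteins were mostly at or near 0. Of 12 listed genes, Mpo, Elane, Prtn3, Camp and Bpi, which encode proteins of neutrophil granules, had 0 counts in each library. The serine protease Ctsg had at most 0.04 TPM and was not tested. Of the 6 tested, 2 lay above 1 TPM, none below and 4 on neither side, where 43.2% of all genes and 54% of protein-coding genes lay above, and 6.35% and 6.02% below. The median level of the 6 was -1.46 (log2 over 1 TPM), against 0.24 over all genes tested and 1.06 over protein-coding genes. Cybb, the catalytic subunit of the phagocyte NADPH oxidase, had 142, 127 and 83.4 TPM and so was also lowest in library 3. Chil3, a chitinase-like secreted protein, had 4.89, 3.59 and 2.09 TPM. Slpi, a protease inhibitor, had 2.16, 2.36 and 0.76 TPM and was not called (edgeR adjusted p = 0.121). Without library 3 it lay above 1 TPM, by 1.17 on the log2 scale. Ltf, Lcn2 and Ngp had at most 0.17 TPM, with 0 counts in at least 1 library each, and limma placed all 3 below 1 TPM, at -2.82, -2.98 and -3.01 on the log2 scale.

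**Figure D5:**
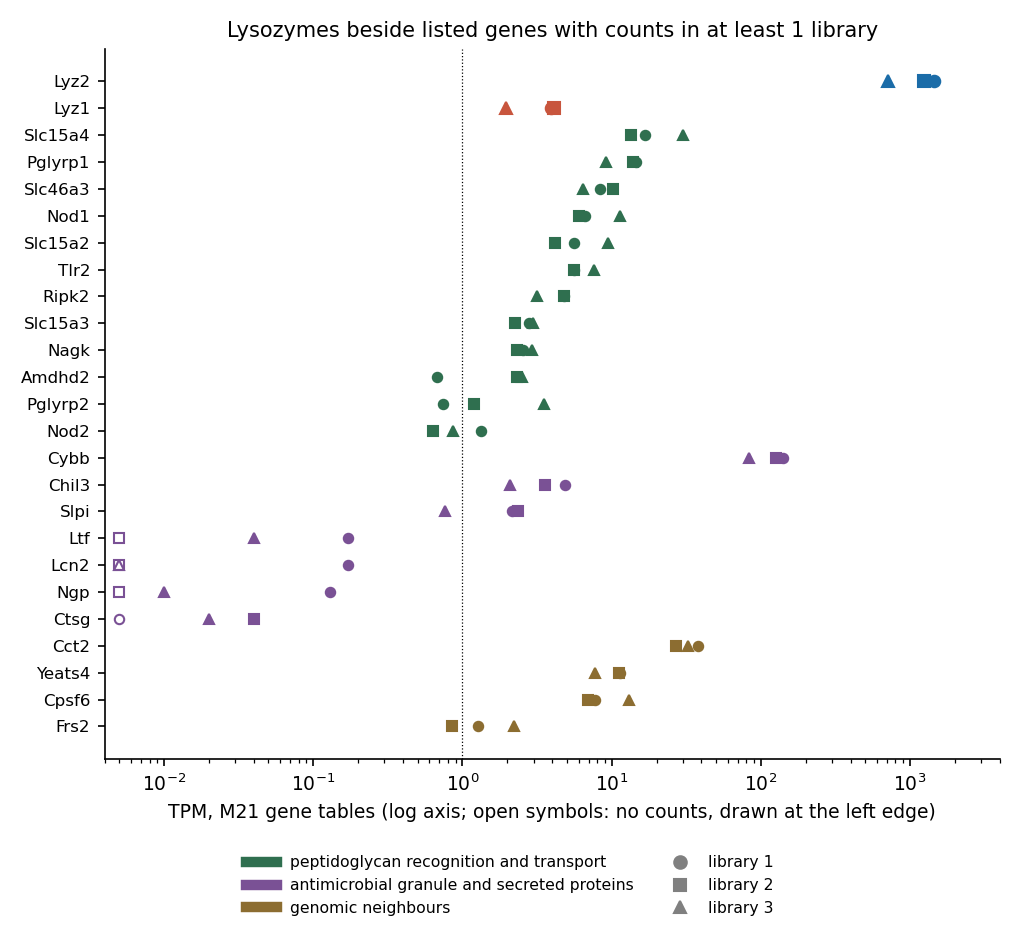
TPM in the M21 gene tables (log axis) of Lyz2, Lyz1 and the listed genes with counts in at least 1 library, with a symbol per monocyte library; the dotted line marks 1 TPM and open symbols mark libraries with no counts. Lyz2, at 718 to 1448 TPM, stands to the right of all listed genes, of which Cybb is next at 83.4 to 142 TPM.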

How the data were processed

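Blood monocytes gave 3 total RNA-seq libraries, and the M21 gene tables hold 27.2, 26.5 and 19.9 M expected counts for them in order of number. Per the accompanying notes, the authors quantified reads on mm10 with GENCODE M21 and again with M4. The deposited expected counts are estimated numbers of reads per gene, not whole where reads are divided between genes. The deposited TPM values were scaled by the authors over every row of a table. The deposited gene tables also give effective lengths and a posterior SD. A deposited kallisto-format table gives estimated counts and TPM per M21 transcript. No label or note used here names the quantification programs or the read length.

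Levels were tested against 1 TPM with edgeR 4.0.16 (glmQLFit, intercept only, rounded counts, summed count of 10 or more, offsets equal to the log of the count that 1 TPM stands for, Benjamini-Hochberg threshold 0.05). F was computed from the deviances and moderated dispersions of that fit. Tested on simulated data for this comparison (48960 genes, dispersion 0.05), it called 100% of 50 genes at 4 TPM, 90% of 50 at 2 TPM, 75% of 48 at 0.5 TPM and 0.0185% of 48764 at 1 TPM. Alternatives used limma 3.58.1, DESeq2 1.42.0, other scalings, filters and tables, and each library left out. Exact sign-flip tests ran over libraries. Transcripts were aligned with Biopython 1.88 and searched with BLAST+ 2.17.0.

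The genes named are both lysozymes, 5 genes nearest in pattern to each, their neighbours in rank and on the chromosome, and the listed genes and markers. Members and lists were chosen with earlier results of these data known, so the share and median of a list describe its own genes only. Rows without a gene name, left out of tests, held 0.000571%, 9.04e-05% and 7.53e-05% of counts in libraries 1, 2 and 3.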

Additional observations from a re-analysis of the deposited data

How the results depend on the processing

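The excess of Lyz2 over Lyz1 kept its direction under every alternative run, with a mean log2 ratio of 8.01 (pseudocount 1) to 8.49 (expected counts) and of 8.31 to 8.46 with a library left out. Both genes stayed above 1 TPM under each of the 9 alternatives, at a log2 level of 9.93 to 13.38 for Lyz2 and 1.56 to 4.98 for Lyz1. The Lyz1 share of counts in M21 minus that in M4 was -0.00086 to -0.00033 percentage points with a library left out, but turned to 0.0122 in TPM, which follows from the longer M21 transcript of Lyz2. The mean Lyz1 share of counts in the M21 gene tables, whose alternatives were chosen after seeing the data, was 0.260 to 0.290% with a library left out. Over all genes, 7636 lay above and 1123 below 1 TPM, against 12091 above and 1 below with TPM over protein-coding genes, 6304 below with limma and 227 below with DESeq2. Leaving out library 1, 2 or 3 gave counts below of 251, 381 or 1085; the cause was not tested. For the other 22 listed genes tested, 177 of 195 values kept their direction and call, 12 gained (among them Ltf, Lcn2 and Ngp below 1 TPM with limma) and 2 lost a call, and 4 changed sign. The sign changed for Frs2 in the M4 tables (-0.30), for Nod2 with TPM over protein-coding genes (3.15) and with a library left out (-0.42 to 0.14), and for Pglyrp2 with a library left out (-0.038 to 1.23). With 3 libraries an exact sign-flip test cannot give less than p = 0.25, so agreement between libraries is described and no call rests on it. Lyz1 rests on 162 counts in library 3, which limits its precision there.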
